A study of Mus musculus with 6 samples.

Results

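The genes described here are 10 regulators of muscle wasting: the ubiquitin ligase genes Fbxo32, Trim63, Fbxo30 and Fbxo40, the transcription factor genes Foxo1, Foxo3 and Foxo4, the growth inhibitor Mstn, and the glucocorticoid-induced genes Klf15 and Ddit4. They were chosen by name, with earlier results of these data known, and all 10 had a row among the 16289 genes of the deposited count table. RNA had been sequenced from whole muscle labelled as tibialis anterior, the fast shin muscle, in male wildtype C57BL/6J mice aged 12 weeks. All mice had received a glycerol injection into the muscle, which destroys fibres, and the muscle was taken 14 days later, during regeneration. One group of 3 mice had a control treatment (glycerol) and the other 3 mice received melatonin, the hormone of the pineal gland (glycerol+melatonin). No uninjured muscle was analysed here, so each value below is a level in injured and regenerating muscle. The sources used here state neither the dose of melatonin nor how or when it was given.

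FoxO transcription factors switch on genes of protein breakdown when insulin and growth factor signalling is low. The kinase AKT phosphorylates them and holds them in the cytoplasm, so their activity is set largely at the level of the protein and not of the mRNA. In wasting muscle they switch on Fbxo32 (atrogin-1, also called MAFbx) and Trim63 (MuRF1), the best-known ligases of muscle atrophy, which tag proteins for the proteasome. Glucocorticoids act on the same genes through the glucocorticoid receptor, which also induces Klf15 and Ddit4. Myostatin, a secreted member of the TGF-beta family made by muscle fibres, limits muscle growth through activin receptors and SMAD proteins.

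The promoter of Trim63 is shown because both arms of this pathway can be read in it as letters. The RefSeq promoter table (build GRCm38.p6) held a window of 250 bases before to 50 bases after a start site for 8 of the 10 genes, and Fbxo32 and Foxo4 were not among them. The windows were searched on both strands for TGTTTAC (FoxO), GNACA followed by NNN and TGTNC, with N any base (glucocorticoid receptor), CACGTG (E-box, a sequence bound by basic helix-loop-helix factors) and CAGCTG (the E-box form preferred by myogenic factors). Below is Trim63 from chr4:134314870-134315119, plus strand, with the glucocorticoid receptor match and then the FoxO match in capitals, 1 base apart:
Trim63: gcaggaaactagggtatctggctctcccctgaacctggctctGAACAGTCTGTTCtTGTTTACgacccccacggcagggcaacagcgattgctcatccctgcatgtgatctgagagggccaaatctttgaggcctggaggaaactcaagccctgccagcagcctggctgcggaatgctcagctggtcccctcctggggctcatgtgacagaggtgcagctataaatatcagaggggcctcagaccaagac
The receptor match began 208 bases and the FoxO match 194 bases before the start. Of all 32851 windows of the same length, 0.475% held the receptor motif and 3.65% the FoxO motif. Klf15 is shown for its E-boxes, from chr6:90462326-90462575, plus strand, with CACGTG in capitals:
Klf15: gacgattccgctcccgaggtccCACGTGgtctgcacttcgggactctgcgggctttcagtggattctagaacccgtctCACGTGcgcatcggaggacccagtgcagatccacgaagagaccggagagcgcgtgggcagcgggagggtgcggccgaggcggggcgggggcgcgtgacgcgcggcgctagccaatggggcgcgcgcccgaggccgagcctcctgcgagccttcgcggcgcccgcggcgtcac
A further CACGTG in Klf15 spanned the start site itself, and 7.15% of all windows held this motif. CAGCTG was found in Trim63 and in both windows of Fbxo40, against 16.3% of all windows. The windows of Fbxo30, Foxo1, Foxo3, Mstn and Ddit4 held none of the 4 motifs, which says only that these letters are not in this stretch.

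Between the treatments, 0 of the 10 genes passed edgeR's quasi-likelihood test at a Benjamini-Hochberg adjusted p under 0.05, where 0.0738% of all 16259 tested genes passed. Adjusted p-values ran from 0.222 for Foxo4 to 0.932 for Fbxo30. At an unadjusted p under 0.05, 1 of the 10 (Foxo4) was called, against 19.5% of all genes. DESeq2 also called 0 of 10 adjusted (4.63% of all genes) and 1 unadjusted (19.6%). Limma-voom called 0 adjusted (0.0738%) and 1 unadjusted (20%). Of the log2 fold changes of glycerol+melatonin over glycerol, 7 were below 0 and 3 above, with a median of -0.22, while 48.3% of all genes were below 0 and their median was 0.02. That median of the 10 genes was -0.0038 without glycerol replicate 2, -0.08 without glycerol+melatonin replicate 3 and -0.11 with the length correction described below. At the other end it was -0.38, without glycerol+melatonin replicate 1. Scaling libraries by their totals alone gave -0.01 for the 10 genes, but moved the median of all genes to 0.23. The intervals were wide, so these counts do not show that the genes were alike in both groups. The widest were those of Ddit4, from 0.861-fold to 3.12-fold, and Trim63, from 0.594-fold to 2.01-fold, and one of the narrower was that of Fbxo30, from 0.75-fold to 1.41-fold (95% intervals).

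**Figure D1:**
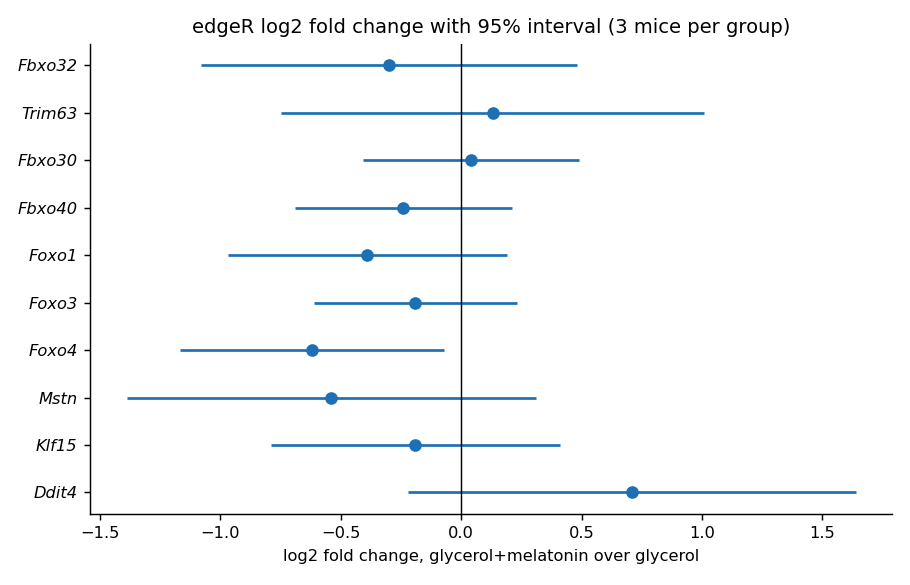
Points give the edgeR log2 fold change of glycerol+melatonin over glycerol for each gene and lines its 95% interval, before any adjustment for the number of genes tested (3 mice per group). The interval of Foxo4 (-1.17 to -0.07) lies below 0 and those of the other 9 genes cross 0.

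Fbxo32 encodes the F-box subunit that gives an SCF ubiquitin ligase its targets in wasting muscle, among them translation and myogenic factors. The gene (ENSMUSG00000022358) lies on chromosome 15 from 58175879 to 58214932 on GRCm38. Its level, in CPM (counts of the gene per 1000000 counts of the library, scaled by TMM factors), was 216, 491 and 359 in glycerol replicates 1, 2 and 3 and 349, 335 and 179.7 in glycerol+melatonin replicates 1, 2 and 3. The lowest melatonin mouse lay below every glycerol mouse and the other two lay inside the glycerol range, so the groups overlapped. The means were 355 ± 138 and 288 ± 94.0 CPM (SD, n = 3 mice per group), with a log2 difference of -0.30 ± 0.34 (SE, edgeR adjusted p = 0.645). Without glycerol replicate 2 that fold change was 0.0025, so its direction rested on the single mouse with the highest level, and without glycerol+melatonin replicate 3 it was -0.05. Fbxo32 shares 186 exon bases with the antisense gene Gm15943 on the other strand, which was at 8.74 and 5.86 CPM, a small amount beside Fbxo32 itself.

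Trim63 encodes a RING-finger ligase that sits at the sarcomere and targets thick-filament proteins. It lies on chromosome 4 from 134315120 to 134329629 (ENSMUSG00000028834). Its level was 221, 592 and 399 CPM in the glycerol mice and 539, 522 and 263 CPM in the glycerol+melatonin mice. Each group thus held a low mouse and at least 1 high mouse: replicate 2 in the glycerol group and replicates 1 and 2 in the melatonin group. With means of 404 ± 186 and 442 ± 155 CPM (n = 3), the log2 fold change was 0.13 ± 0.38 (edgeR adjusted p = 0.883). Its sign changed when single mice were left out, from -0.17 without glycerol replicate 1 to 0.51 without glycerol replicate 2.

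Fbxo30 encodes MUSA1, an F-box ligase held down by BMP signalling and induced in denervated muscle. The gene (ENSMUSG00000047648, chromosome 10 from 11281330 to 11298052) was at 15.7, 16.6 and 20.7 CPM in glycerol and 18.2, 21.8 and 14.5 CPM in glycerol+melatonin. The melatonin mice held both the highest and the lowest of the 6 values, and the log2 fold change was 0.04 ± 0.20 (edgeR adjusted p = 0.932). Fbxo40, a muscle-specific F-box gene whose product targets the insulin receptor substrate IRS1, lies on chromosome 16 from 36963460 to 36990467 (ENSMUSG00000047746). It was at 214, 254 and 191 CPM in glycerol and 226, 177 and 155 CPM in glycerol+melatonin. Replicates 2 and 3 of the melatonin group lay below all glycerol mice and replicate 1 among them, and the log2 fold change was -0.24 ± 0.20 (edgeR adjusted p = 0.518). It was -0.12 without glycerol replicate 2 or glycerol+melatonin replicate 3 and -0.40 without glycerol+melatonin replicate 1. With scaling by library totals alone it was -0.03, where the median of all genes was 0.23. These 2 genes varied less between mice than Fbxo32 and Trim63: the highest of the 6 levels was 1.5-fold the lowest for Fbxo30 and 1.64-fold for Fbxo40, against 2.73-fold for Fbxo32 and 2.68-fold for Trim63.

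**Figure D2:**
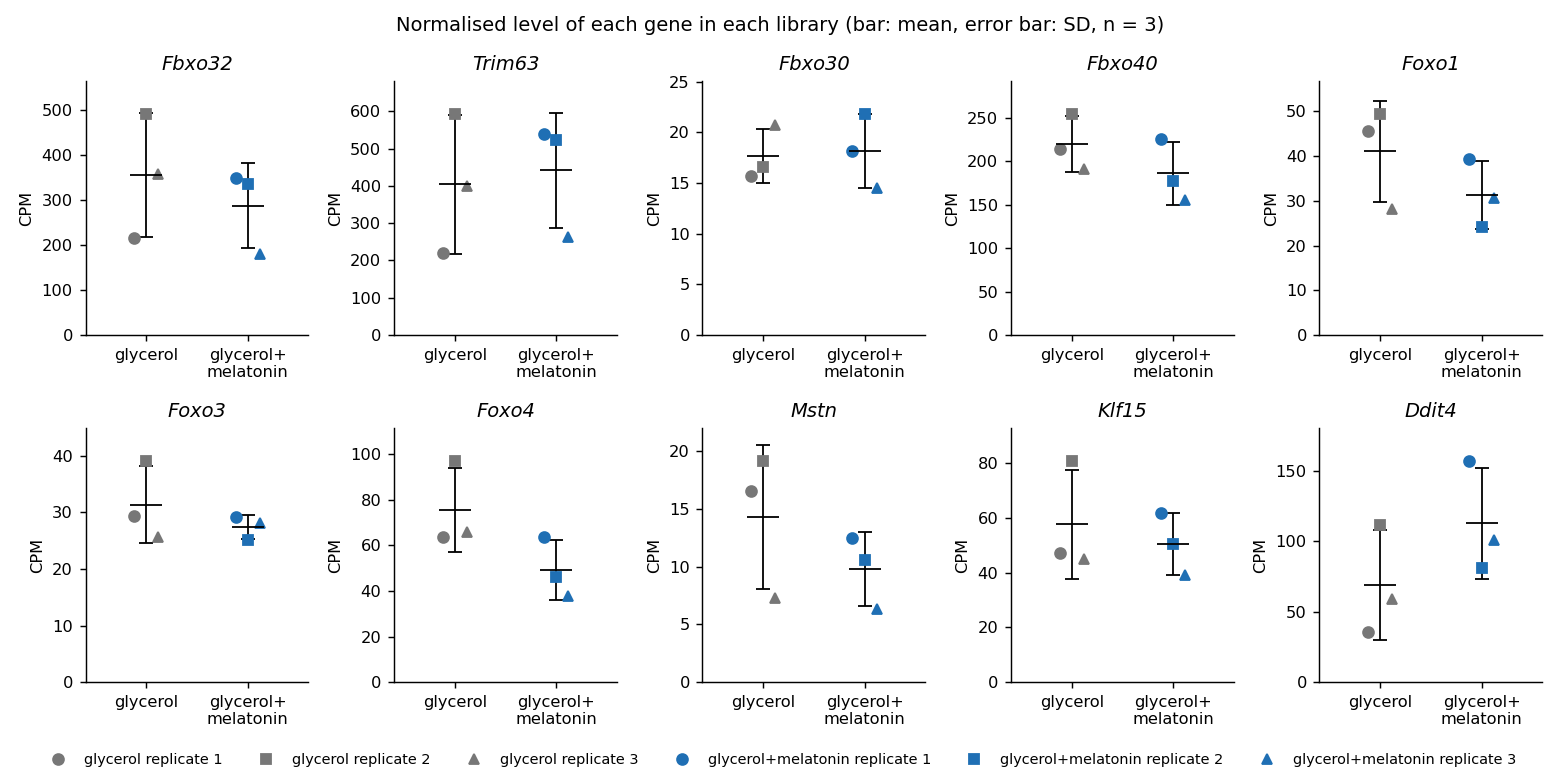
Each panel plots the CPM of 1 gene on a linear axis from 0, with a symbol per mouse, a bar for the group mean and an error bar for the SD (n = 3). Glycerol replicate 2 (grey squares) is the highest mouse for 8 of the 10 genes, and only for Foxo4 do the groups not overlap.

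Foxo4, the smallest by transcript length of the 3 FoxO genes among the 10, lies on chromosome X from 101254528 to 101260873 (ENSMUSG00000042903). It was at 63.7, 96.8 and 65.7 CPM in glycerol and 63.5, 46.1 and 37.8 CPM in glycerol+melatonin. The groups did not overlap, but the gap was narrow, between 63.7 CPM in glycerol replicate 1 and 63.5 CPM in glycerol+melatonin replicate 1. It was 1 of 10 genes without overlap, against 26.0% of all tested genes. When scaled by library totals alone, those 2 mice were at 55.3 and 61.4 CPM and the groups overlapped. The means were 75.4 ± 18.6 and 49.1 ± 13.1 CPM (n = 3), the log2 fold change was -0.62 ± 0.24 (edgeR unadjusted p = 0.0323, adjusted p = 0.222), and it ran from -0.85 without glycerol+melatonin replicate 1 to -0.40 without glycerol replicate 2 when each mouse was left out in turn.

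Foxo1, the FoxO gene whose overexpression in mouse muscle causes muscle loss, lies on chromosome 3 from 52268336 to 52353221 (ENSMUSG00000044167). It was at 45.6, 49.4 and 28.2 CPM in glycerol and 39.3, 24.1 and 30.6 CPM in glycerol+melatonin. Glycerol replicate 3 was apart from its group and sat among the melatonin mice. The log2 fold change was -0.39 ± 0.25 (edgeR adjusted p = 0.414). It was -0.60 without glycerol replicate 3, but -0.24 without glycerol replicate 2 and -0.23 without glycerol+melatonin replicate 2. The antisense model Gm20402 shares 674 exon bases with Foxo1 and was not analysed here.

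Foxo3, the FoxO gene most closely tied to both proteasome and autophagy genes in muscle, lies on chromosome 10 from 42181841 to 42276755 (ENSMUSG00000048756). It was at 29.4, 39 and 25.7 CPM in glycerol and 29.2, 25.1 and 28.1 CPM in glycerol+melatonin. The melatonin mice lay close together, within 1.16-fold of each other, and the glycerol mice spread over 1.52-fold. The log2 fold change was -0.19 ± 0.18 (edgeR adjusted p = 0.584) and rested on glycerol replicate 2, without which it was -0.0039. It was -0.01 with the length correction. Scaled by library totals alone it was 0.03, in a setting that moved the median of all genes from 0.02 to 0.23.

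Mstn, the gene of myostatin, lies on chromosome 1 from 53061640 to 53068079 (ENSMUSG00000026100). It was at 16.5, 19.1 and 7.28 CPM in glycerol and 12.5, 10.6 and 6.30 CPM in glycerol+melatonin. Replicate 3 was the lowest mouse of each group, a number that is not known to link mice across groups. All melatonin mice lay below glycerol replicates 1 and 2. The log2 fold change was -0.54 ± 0.37 (edgeR adjusted p = 0.439), with a range of -0.85 to -0.28 over the fits that left out 1 mouse. The lower end of that range came from leaving out glycerol replicate 3, and the upper end from leaving out glycerol replicate 2.

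Klf15, a transcription factor gene that links glucocorticoids to the breakdown of branched-chain amino acids, lies on chromosome 6 from 90462576 to 90475238 (ENSMUSG00000030087). It was at 47.3, 80.6 and 44.9 CPM in glycerol and 61.8, 50.4 and 39 CPM in glycerol+melatonin. Glycerol replicate 2 stood above the other 5 mice, which were spread from 39 to 61.8 CPM. The log2 fold change was -0.19 ± 0.26 (edgeR adjusted p = 0.715) and 0.13 without glycerol replicate 2. It was 0.02 when scaled by library totals alone, where the median of all genes was 0.23.

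Ddit4 encodes REDD1, which restrains the growth kinase complex mTORC1 under stress and after glucocorticoids. The gene (ENSMUSG00000020108) lies on chromosome 10 from 59949669 to 59951834. It was at 35.5, 112 and 59.3 CPM in glycerol and 157, 81.0 and 101 CPM in glycerol+melatonin. It had the largest spread of the 10 genes, with the highest mouse 4.42-fold above the lowest, and glycerol replicate 2 lay inside the melatonin range. The means were 68.9 ± 39.2 and 113 ± 39.5 CPM, and the log2 fold change was 0.71 ± 0.41 (edgeR adjusted p = 0.36). Leaving out single mice gave 0.40 (without glycerol replicate 1 or glycerol+melatonin replicate 1) to 1.25 (without glycerol replicate 2).

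The spread between mice of 1 group set the precision of these comparisons. The within-group SD of log2 CPM had a median of 0.40 over the 10 genes and 0.28 over all tested genes. Ddit4 (0.68), Trim63 (0.65) and Mstn (0.64) were above the 90th percentile of all genes in this spread, and Fbxo32 (0.57) was at percentile 86.9. Foxo3 (0.23) and Fbxo40 (0.25) were at percentiles 38.1 and 42.3. The counts behind these levels were not low: the smallest count of any of the 10 genes in any mouse was 296 (Mstn), in libraries of 39310361 to 48879045 counts.

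Glycerol replicate 2 was the highest of the 6 mice for 8 of the 10 genes, while 18.4% of all tested genes had their highest value there. Glycerol+melatonin replicate 3 was the lowest for 6 of the 10 (Fbxo32, Fbxo30, Fbxo40, Foxo4, Mstn and Klf15), against 23.7% of all genes. Averaged over the 10 genes, log2 CPM relative to the mean of all mice was -0.17, 0.50 and -0.13 in the glycerol mice and 0.25, -0.06 and -0.39 in the melatonin mice. The members thus spread over the mice within each group, with 1 glycerol mouse high and the melatonin mice on both sides of 0.

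Fast fibres are the main fibre type of tibialis anterior, and 18 genes of mature fast fibres were measured beside the members. All 18 were tested and none was at 0 in any mouse, and their summed level was 186121 to 219459 CPM in glycerol and 137898 to 207198 CPM in glycerol+melatonin. The tissue label is tibialis anterior, but the labels' RNA extraction text speaks of a back muscle, and since back muscles are also rich in fast fibres these markers do not tell which was taken. Fast fibre markers, like the members, were lowest in glycerol+melatonin replicate 3 (-0.34 relative to the mean of all mice). So were several other lists described below, but not all, among them fibroblast markers (-0.28) and autophagy and lysosome genes (-0.21). The highest mouse differed: glycerol+melatonin replicate 1 for fast fibre markers (0.19) and glycerol replicate 2 for the members (0.50). The 10 slow fibre markers were lowest in glycerol replicate 2 (-1.12), with summed levels of 371 to 695 CPM in glycerol and 541 to 638 CPM in glycerol+melatonin. Their part in the levels of the members was not tested. In whole muscle, fewer fibres and less of an mRNA per fibre cannot be told apart. Each gene was set against the mean log2 level of the fast fibre markers in the same mouse, a comparison added after the data were seen. The same value is taken from every gene of a mouse, so all the differences shift by a common amount. The 7 differences below 0 came closer to 0. The 3 above 0, with Ddit4 among them, moved away from it. This pattern follows from the common shift and is not a separate result for each gene. The new values are differences of mean log2 level and not edgeR fold changes, so part of each change is one of method. Trim63, at 0.13 by edgeR, was at 0.32 (exact p = 0.6), and Fbxo30, at 0.04 by edgeR, was at 0.18 (exact p = 0.5). Foxo3 and Klf15 were at -0.02 each (exact p = 1.0), Fbxo40 at -0.10 (exact p = 0.3) and Fbxo32 at -0.14 (exact p = 0.7). Foxo4 was at -0.47 and did not overlap (exact two-sided permutation p = 0.1, the smallest p that 3 against 3 mice can give), Mstn was at -0.33 (exact p = 0.5) and Ddit4 at 0.96 (exact p = 0.2).

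**Figure D3:**
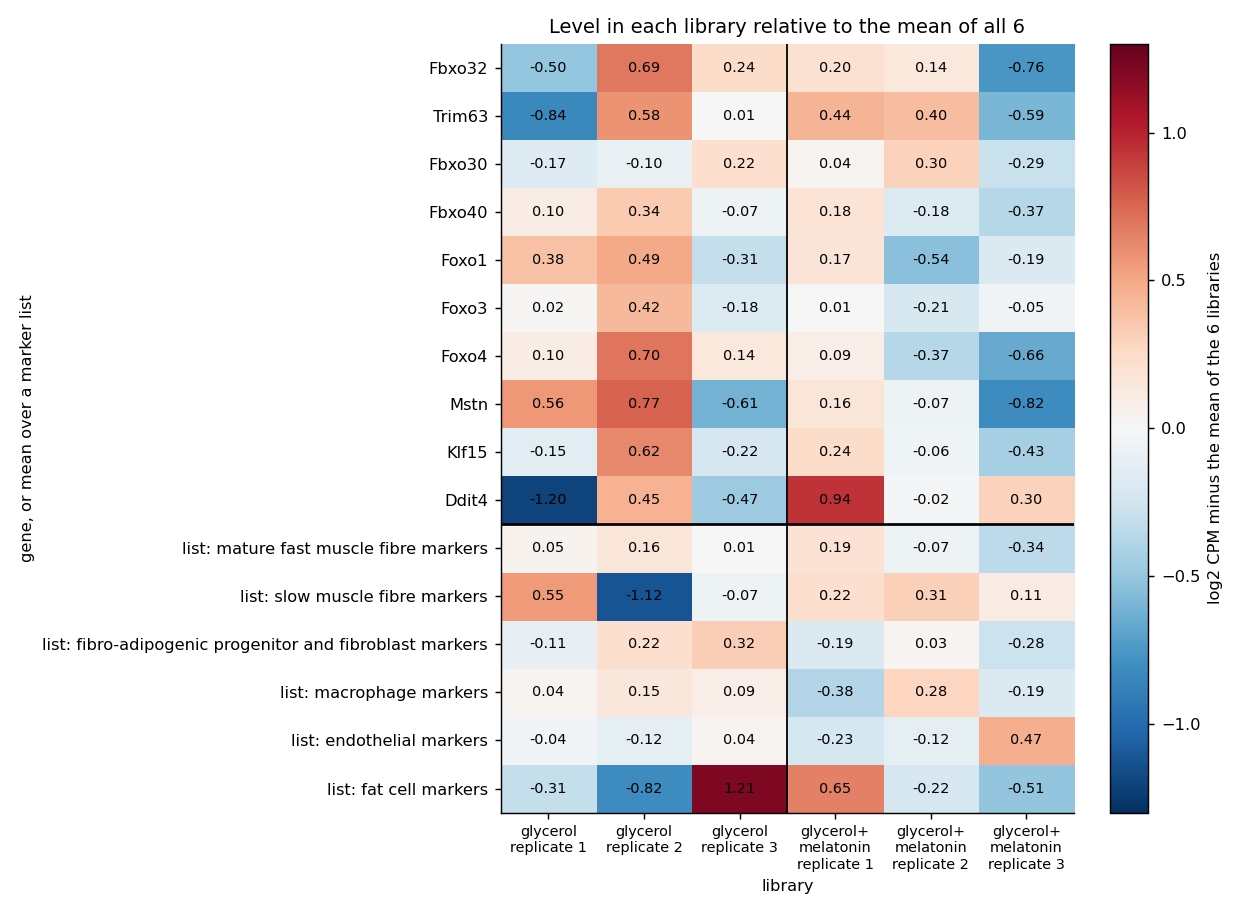
Colour and number give log2 CPM minus the mean over the 6 mice for the 10 genes (upper rows) and, for 6 marker lists (lower rows), the mean of that value over the list. Glycerol replicate 2 is red for 9 of the 10 genes and blue for slow fibre markers (-1.12), and glycerol+melatonin replicate 3 is blue for 9 of the 10 genes.

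Markers of other cells of injured muscle were measured beside the members. The 12 markers of fibro-adipogenic progenitors and fibroblasts summed to 7386 to 8468 CPM in glycerol and 5586 to 6688 CPM in glycerol+melatonin, with 7 of 12 below 0. The 12 macrophage markers summed to 634 to 877 and 611 to 871 CPM, with 8 of 12 below 0. The 8 endothelial markers summed to 945 to 1127 and 888 to 1433 CPM, and the 7 tested fat cell markers to 482 to 994 and 779 to 927 CPM. Much of the fat cell sum was Fabp4, with means of 521 and 771 CPM (0.56 ± 0.22, edgeR adjusted p = 0.221). Of the 7 fat cell markers, 5 were below 0, with a median of -0.20. The 8 muscle stem cell and myoblast markers summed to 114 to 136 CPM and 145 to 172 CPM, with 6 of 8 above 0. Of 6 neutrophil markers 3 were tested and summed to 3.20 to 4.30 and 4.68 to 17.0 CPM, with S100a9 at 0 in 1 glycerol mouse, and the 6 Schwann cell markers summed to 152 to 159 and 109.7 to 148 CPM. None of these genes passed by edgeR, and their part in the levels of the 10 genes was not tested.

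Ratios of 2 genes within a mouse do not depend on how libraries are scaled. Fbxo32 and Trim63 were both highest in glycerol replicate 2 and lowest in glycerol replicate 1 and glycerol+melatonin replicate 3, and the ratio of their counts varied less within a group than either level. The log2 ratio of Fbxo32 to Trim63 was -0.03, -0.27 and -0.15 in the glycerol mice and -0.63, -0.64 and -0.55 in the melatonin mice. All melatonin mice were below all glycerol mice, by 0.45 on average, so that there were 0.901 Fbxo32 counts per Trim63 count in glycerol and 0.655 in glycerol+melatonin. The exact two-sided permutation test gave p = 0.1, the smallest it can give with 3 against 3, and 0.45 after Benjamini-Hochberg adjustment over the 45 pairs of the 10 genes. Of all other tested genes, 4.53% had a ratio to Trim63 without overlap between the groups, and 7.63% a ratio to Fbxo32.

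The difference in that ratio changed with a correction for transcript length. The longest transcript has 6976 bases for Fbxo32 and 1886 for Trim63. After a correction of each library for transcript length, added to this comparison after the data were seen, the ratio was -0.29, -0.51 and -0.10 in the glycerol mice and -0.43, -0.51 and -0.43 in the melatonin mice. The groups then overlapped, and the difference was -0.16 (exact permutation p = 0.4). The same correction moved the log2 fold change of Fbxo32 from -0.30 to -0.13 and that of Trim63 from 0.13 to -0.0011.

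The ratio of Foxo1 to Foxo3 overlapped between the groups, at 0.63, 0.34 and 0.13 in the glycerol mice and 0.43, -0.06 and 0.13 in the melatonin mice on the log2 scale. Its difference was -0.21 (exact permutation p = 0.4) and -0.19 after the length correction. Over the 45 pairs, 10 ratios did not overlap between the groups. Ddit4 was part of 6 and Foxo4 of 4, including the ratio between these genes, and the remaining one was Fbxo32 to Trim63. Of all genes, 14.9% had such a ratio to Ddit4, 33.1% to Foxo4, 17.4% to Fbxo40 and 7.89% to Klf15. After the length correction Foxo3 to Foxo4, which overlapped as counted, no longer did (corrected difference 0.58), and 5 of these 10 still did not overlap. Among them was the ratio of Foxo4 to Klf15, at 0.43, 0.26 and 0.55 in the glycerol mice and 0.04, -0.13 and -0.05 in the melatonin mice, a difference of -0.46 as counted and -0.38 corrected. Another was Fbxo40 to Foxo4, at 1.75, 1.39 and 1.54 in the glycerol mice and 1.83, 1.94 and 2.03 in the melatonin mice. These pairs were picked for their lack of overlap, and each had an exact permutation p = 0.1 both as counted and corrected. Adjusted over the 45 pairs, this p was 0.45 as counted and 0.692 corrected.

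**Figure D4:**
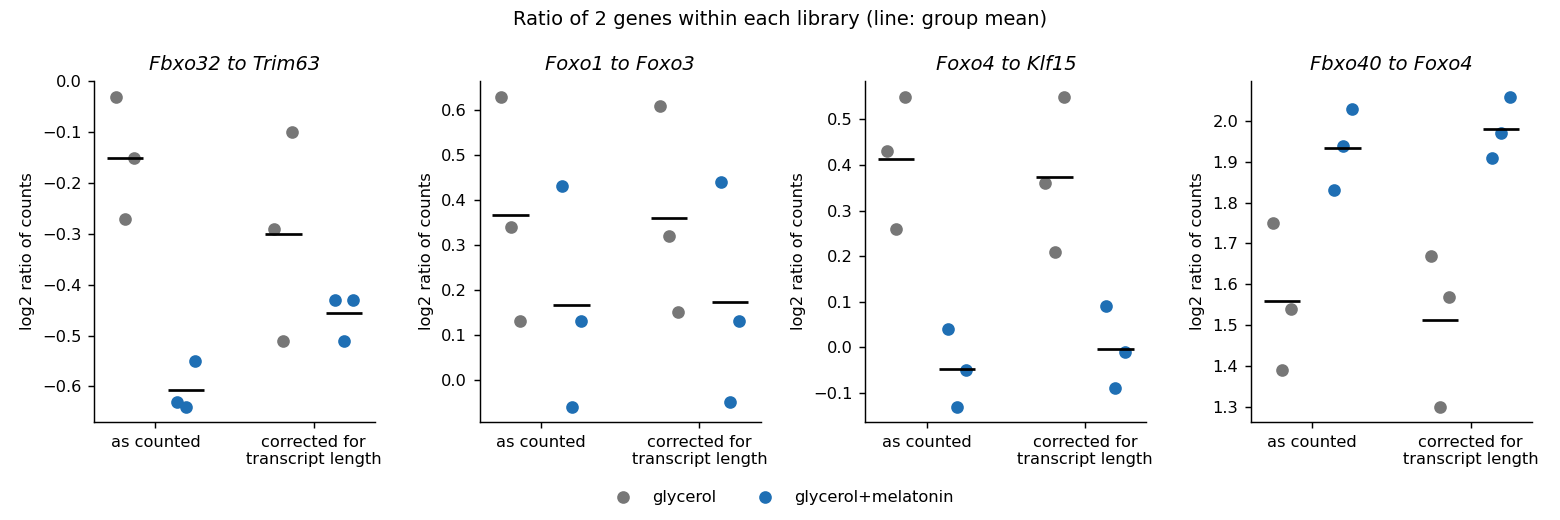
Points give the log2 ratio of the counts of 2 genes in each mouse and lines the group mean, as counted (left of each panel) and after correction for transcript length (right). The groups separate for Fbxo32 to Trim63 only as counted, for Foxo4 to Klf15 and Fbxo40 to Foxo4 in both, and for Foxo1 to Foxo3 in neither.

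Levels of different genes were compared as CPM per kilobase of the longest annotated transcript. Trim63 was the highest of the 10 genes, with a mean of 224 CPM per kilobase over the 6 mice and a range (117 to 314) above that of every other member. Ddit4 (51.8), Fbxo32 (46.1) and Fbxo40 (39.5) followed with overlapping ranges, and their order differed between the groups. In glycerol Fbxo32 (51.0) was above Ddit4 (39.3) in all 3 mice, and in glycerol+melatonin Ddit4 (64.4) was above Fbxo32 (41.3) in 2 of 3. Klf15 (21.8) and Foxo4 (19.7) came next and overlapped, with Klf15 higher in 1 of 3 glycerol mice and all 3 melatonin mice. Mstn (4.45), Foxo3 (4.30), Foxo1 (4.18) and Fbxo30 (3.54) formed the low end, and the ranges of neighbours in this order overlapped. Foxo4 thus had the highest level per kilobase of the 3 FoxO genes among the 10, and its lowest mouse (12.0) was above the highest of Foxo1 (5.70) and Foxo3 (5.69).

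Genes around the pathway were described as lists, and 0 genes of any of the lists passed edgeR's test over all genes. Other muscle ubiquitin ligase and proteolysis genes had 20 of 33 below 0, and their log2 fold changes had a median of -0.07. The 3 with the smallest p were Nedd4, a ligase of the HECT type (-1.23 ± 0.35, edgeR adjusted p = 0.161), the ubiquitin-conjugating enzyme Ube2d1 (-0.84 ± 0.26, adjusted p = 0.172) and the chaperone-linked ligase Stub1 (0.44 ± 0.14, adjusted p = 0.182). Autophagy and lysosome genes had 22 of 33 below 0 and a median of -0.13, led by the starter kinase Ulk2 (-0.66 ± 0.19), the lipid scramblase Atg9a (-1.01 ± 0.30) and Atg16l1 (0.40 ± 0.15), with edgeR adjusted p from 0.164 to 0.208.

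Other known FoxO targets had 16 of 27 below 0 and a median of -0.15. Of these, 8 lay lower and 3 higher without overlap between the groups, where 12.5% of all genes lay lower and 13.6% higher. Gadd45a, a stress gene that also promotes muscle atrophy, was at 64.6, 64.7 and 64.1 CPM in glycerol and 84.7, 112 and 104 CPM in glycerol+melatonin (0.63 ± 0.15, edgeR adjusted p = 0.138). The glycerol mice were nearly alike and every melatonin mouse lay above them. After the length correction Gadd45a was at 0.40. Catalase (Cat) was at -0.72 ± 0.18 and the insulin receptor gene Insr at -1.04 ± 0.26 (edgeR adjusted p = 0.14 and 0.141).

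The list of genes that regulate FoxO proteins, mostly of the PI3K, AKT, AMPK and sirtuin pathways, also held Foxo6, another FoxO gene. It had 25 of 31 below 0 and a median of -0.36, against 0.02 over all tested genes. In this list 11 of 31 lay lower and 1 higher without overlap, against 12.5% and 13.6% of all genes. The catalytic subunits of PI3-kinase led it: Pik3cb was at 4.62, 9.58 and 7.67 CPM in glycerol and 1.96, 2.86 and 3.00 CPM in glycerol+melatonin (-1.48 ± 0.31, edgeR adjusted p = 0.122), and Pik3ca was at -1.17 ± 0.29 (adjusted p = 0.141). Prkaa2, the AMPK catalytic subunit of muscle, was at -0.92 ± 0.30 (edgeR adjusted p = 0.183). The median of the list was -0.21 after the length correction. It was -0.14 with scaling by library totals alone, where the median of all genes was 0.23. Without overlap, other ubiquitin ligase and proteolysis genes had 4 of 33 lower and 4 higher. Autophagy and lysosome genes had 7 of 33 lower and 2 higher. Of lists described below, the myostatin list had 7 of 32 lower and 2 higher and KLF15-linked genes 5 of 18 and 1. The mTORC1 genes had 6 of 31 lower and 4 higher, and clock genes 2 of 19 and 2. All these list counts use TMM-scaled levels.

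**Figure D5:**
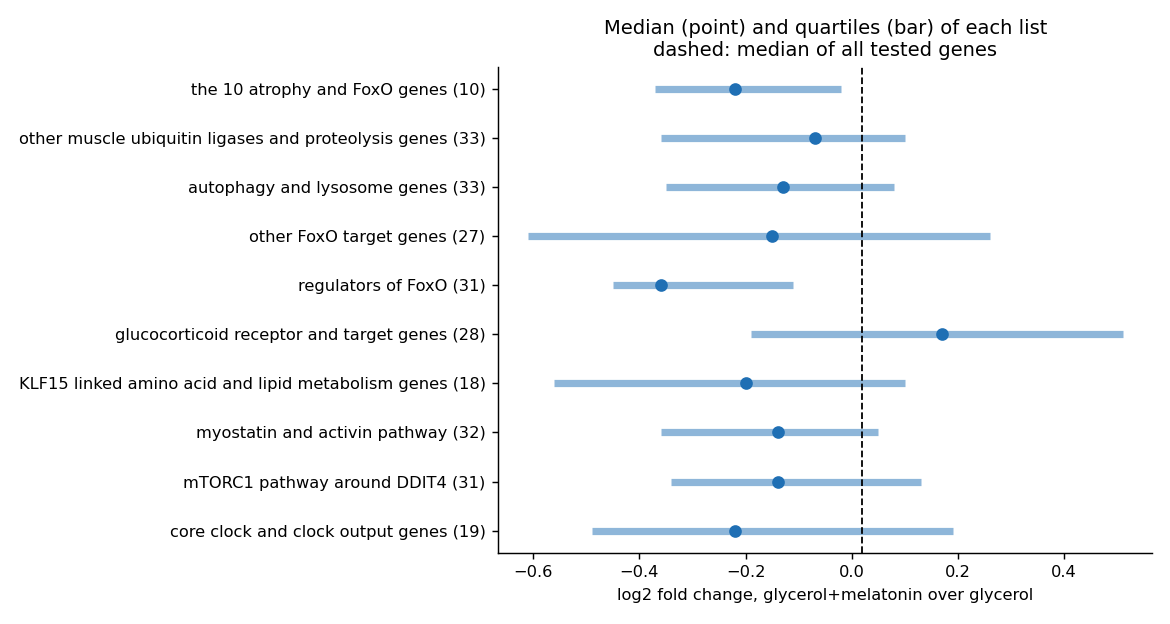
Points give the median and bars the quartiles of the edgeR log2 fold change over the tested genes of the members and 9 pathway lists (number in brackets), and the dashed line the median of all tested genes (0.02). Among these lists, which leave out the cell markers, the median of regulators of FoxO is at -0.36 and that of glucocorticoid genes at 0.17, and the quartiles of most lists span 0.

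The glucocorticoid receptor and its target genes, the list nearest to Klf15 and Ddit4, had 15 of 28 above 0 and a median of 0.17. The median was 0.02 without glycerol replicate 1, 0.05 without glycerol+melatonin replicate 3 and 0.06 with the length correction. Dusp1, a phosphatase gene that glucocorticoids and acute stress induce, was at 95, 107 and 80.3 CPM in glycerol and 167, 152 and 208 CPM in glycerol+melatonin (0.90 ± 0.19, edgeR adjusted p = 0.122). Klf9, a receptor target of the same family as Klf15, was at 119, 129 and 59.3 CPM in glycerol and 50.8, 37.1 and 28.0 CPM in glycerol+melatonin (-1.41 ± 0.32, edgeR adjusted p = 0.134). These 2 targets lay in opposite directions, each without overlap between the groups. Gadd45a, described above as a FoxO target, is in both lists. It was also among the 3 genes of this list with the smallest p, and went the same way as Dusp1. Of the 28 genes, 6 lay lower and 4 higher without overlap, against 12.5% and 13.6% of all genes. Fkbp5 (-0.07 ± 0.33) and Tsc22d3 (-0.15 ± 0.27), commonly used readouts of the receptor that were named here after their values were seen, had edgeR adjusted p of 0.929 and 0.791.

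Genes of amino acid and lipid metabolism linked to Klf15 had 11 of 18 below 0 and a median of -0.20. This median was -0.07 without glycerol+melatonin replicate 3. It was -0.0041 with scaling by library totals alone, where the median of all genes was 0.23. The fatty acid activating enzyme Acsl1 was at -1.42 ± 0.31 (edgeR adjusted p = 0.132), and Dbt (-0.70 ± 0.25) and Aldh6a1 (-0.57 ± 0.22), enzymes of branched-chain amino acid breakdown, had adjusted p of 0.2 and 0.208. In the core clock and its outputs 12 of 19 were below 0, with a median of -0.22. The output factors Tef (-0.65 ± 0.20), Dbp (-0.95 ± 0.31) and Hlf (-0.81 ± 0.28) had edgeR adjusted p from 0.173 to 0.191. The sources used here do not state the time of day at which muscles were taken.

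Genes around myostatin and activin had 22 of 32 below 0 and a median of -0.14. Those with the smallest p were Wfikkn2, a secreted binding protein that blocks myostatin, at 3.66, 4.95 and 3.87 CPM in glycerol and 2.03, 2.16 and 1.3 CPM in glycerol+melatonin (-1.18 ± 0.27, edgeR adjusted p = 0.132), the proprotein convertase Pcsk5 (-0.65 ± 0.16, adjusted p = 0.137) and the matrix proteoglycan Dcn (-0.81 ± 0.21, adjusted p = 0.145). Dcn is also among the fibroblast markers above. The genes of the activin receptors Acvr2a (-0.11 ± 0.16) and Acvr2b (-0.19 ± 0.47) and the inhibitor Fst (0.46 ± 0.17), named after their values were seen, had edgeR adjusted p of 0.728, 0.852 and 0.201. The mTORC1 genes around Ddit4 had 20 of 31 below 0 and a median of -0.14, led by the mTOR inhibitor Deptor (-0.80 ± 0.19), the stress factor Ddit3 (0.54 ± 0.16) and the amino acid sensing GTPase Rragd (-0.97 ± 0.29), with edgeR adjusted p from 0.137 to 0.173.

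Ddit4 had the widest range over the 6 mice, 2.14 on the log2 scale, and its pattern was compared with all tested genes by the root mean square difference of log2 CPM after centring each gene. The 5 nearest genes were Bcl2a1a (0.20), Cebpd (0.21), Fgf16 (0.22), E230001N04Rik (0.23) and Psmc3ip (0.25). Of these, Cebpd, a transcription factor gene, was well expressed, at 43.4, 122 and 46.1 CPM in glycerol and 152, 85.1 and 116 CPM in glycerol+melatonin. As for Ddit4, the highest mouse was glycerol+melatonin replicate 1 and the lowest glycerol replicate 1. Cebpd was picked for its nearness to Ddit4, so this likeness is not a separate finding. The other 4 stayed under 3 CPM in every mouse, where counting error is larger.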

How the data were processed

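The values are raw counts of reads per gene in 6 libraries, deposited by the authors as 1 table. The submitters' processing notes list the build mm10 and, among tools, HISAT2 2.0 and StringTie 1.3.3b, Trimmomatic 0.36, FastQC 0.11.2, bedtools 2.26.0 and DESeq2 1.12.4, with no order. Which tool counted, whether by strand, and how it treated multiply matching reads was not stated there. The smallest gene total is 28, so the deposited table had been filtered. Columns were matched to samples by treatment code and replicate number. Symbols, positions and transcript lengths came from GENCODE M21 on GRCm38, the assembly of mm10, for 16260 genes.

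All 6 libraries were fitted in R 4.3.3 with edgeR 4.0.16 (quasi-likelihood, TMM scaling, filterByExpr), and p-values were adjusted over 16259 genes. The 95% intervals use the fitted standard error. Log CPM used a prior count of 2. Alternatives were DESeq2 1.42.0, limma-voom 3.58.1, other scalings and filters, a replicate block, a spline correction for transcript length (4 degrees of freedom) and leaving out each library. The scripts were tested on simulated counts with 16259 genes for this comparison. There edgeR called, at an adjusted p under 0.05, 1.5% of 67 genes changed 1.5-fold and 20.9% of 67 changed 2-fold. Of 66 genes changed 4-fold it called 92.4%. Changes of 1.5-fold and 2-fold were thus mostly missed.

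The genes and lists were chosen with earlier results of these data known. Named beside the 10 genes were the 3 genes of each pathway list with the smallest p, genes sharing exon bases and the 5 nearest to the member of widest range. Replicates of a group differed by a chi-square per degree of freedom of 66.8 to 182.6, so each was counted as its own sample. The design text describes the mice of each group as biological replicates.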

Additional observations from a re-analysis of the deposited data

How the results depend on the processing

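The count of 0 of 10 genes passing held in all settings tried, including a threshold of 0.10, and the lowest adjusted p of any of them in any setting was 0.147 (Foxo4, DESeq2). Of 160 fold changes of the 10 genes over 16 other settings, 149 kept their sign, and 5 genes (Fbxo40, Foxo1, Foxo4, Mstn and Ddit4) did in every one. The sign changed with library totals alone for Foxo3 (0.03) and Klf15 (0.02), and with the length correction for Trim63 (-0.0011). Leaving out single mice gave -0.56 to 0.0025 for Fbxo32, -0.17 to 0.51 for Trim63, -0.11 to 0.18 for Fbxo30, -0.31 to -0.0039 for Foxo3 and -0.36 to 0.13 for Klf15. The cause was not tested.

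Of all genes 12 passed, against 753 by DESeq2, 7 with the length correction, 59 at a threshold of 0.10, 6 to 27 without single mice (6 without glycerol replicate 1, and 27, 25 and 24 without glycerol replicate 3 and glycerol+melatonin replicates 1 and 3) and 0 with a replicate block. Same-numbered mice did not deviate together (correlations -0.01, -0.011 and -0.049). The numbers thus gave no sign of pairing, which so few mice cannot exclude. The block changed the call of none of the 10 genes.

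Scaling by library totals moved the median of all genes from 0.02 to 0.23 and list medians with it: the 10 genes -0.01, KLF15-linked -0.0041, glucocorticoid 0.36, ubiquitin ligases 0.14, autophagy 0.09, FoxO targets 0.08, FoxO regulators -0.14, myostatin pathway 0.05, mTORC1 0.07, clock -0.01, fast fibre 0.07, fibroblast -0.16, stem cell 0.54 and Schwann cell -0.17. The length correction gave -0.21 for FoxO regulators, -0.07 for the myostatin pathway and -0.04 for mTORC1. Leaving out single mice gave -0.38 to -0.0038 for the 10 genes, 0.02 to 0.23 for glucocorticoid genes, -0.36 to -0.07 for KLF15-linked genes, -0.28 to -0.06 for FoxO targets, -0.46 to -0.25 for FoxO regulators, -0.21 to -0.07 for the myostatin pathway, -0.70 to 0.70 for fat cell markers (0.70 without glycerol replicate 3), 0.22 to 0.50 for stem cell markers and -0.55 to -0.25 for Schwann cell markers.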
